A study of Mus musculus with 16 samples.

Results

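Kidneys of wild-type (WT) mice and of mice labelled C3-/- were compared after rhabdomyolysis, the breakdown of skeletal muscle, in 8 of the 16 RNA sequencing libraries of the series, 4 per genotype. The libraries were chosen by their titles. Of the 20525 genes in the deposited matrix, 18035 were tested, those that reached a normalized count of 10 in 4 or more of the 16 libraries. All mice were 8 weeks old, of a background that the labels spell C56BL/6. The muscle injury was made with 7.5 ml/kg of 50% glycerol, injected into the right thigh, and the other 8 libraries, again 4 per genotype, came from control mice given PBS. RNA was taken from frozen kidney sections 30 µm thick. The labels give neither sex nor time of sampling. They do not name the part of C3 that the C3-/- line lacks, and nothing in them says that the libraries came from separate animals. The p-values therefore measure the spread between these samples only, which may be technical. That spread was estimated over the glycerol and PBS libraries together, so the p-values assume that all groups vary alike.

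Complement is a cascade of plasma and tissue proteins. Its pathways meet at C3, which is cleaved to C3a, a ligand of the receptor C3ar1, and to C3b, which binds surfaces and leads to the release of C5a, a ligand of C5ar1. In rhabdomyolysis, myoglobin and heme from muscle reach the kidney and injure its tubules. Injured tubule cells are known to switch on genes such as Havcr1 and Sox9, to release chemokines that draw neutrophils and monocytes, and to lose the transport genes that define each nephron segment.

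The deposited values are DESeq2-normalized read counts, with sums from 25.81 M to 38.39 M per library. The read depth behind them is unknown. Sample numbers in the descriptions run from 1 to 13 in 13 libraries, called list 1 here. The numbers 3, 4 and 5 occur again, for WT glycerol replicate 4 and for replicates 1 and 3 of C3-/- glycerol, called list 2. What the repeated numbers stand for is not given. The list 2 libraries stood apart on the first principal component (-220.4, -143.6 and -96.4, against -39.5 to 58.6 in list 1), and WT glycerol replicate 4 had 3374 genes listed at 0, against 190 to 982 in the other 15. Each comparison is therefore also given within list 1, with 3 WT and 2 C3-/- glycerol libraries. The Y-linked Ddx3y was at 1139 to 1961 in the WT glycerol libraries and at 0, 0, 482 and 1227 in C3-/- glycerol replicates 1 to 4, and Xist, made from the inactive X chromosome, was at 35409.9, 28178, 105 and 20.4 in the latter. Levels of both genes split the C3-/- group and not WT. Segment markers of the kidney were present in all 8 glycerol libraries: Umod, of the thick ascending limb, at 19329 or more and Slc34a1, of the proximal tubule, at 5164 or more. Of 9 skeletal muscle markers 3 passed the filter, and Ckm and Acta1 were not among the genes tested. The one called of those 3 was Pvalb, which the distal tubule also makes and which is given with that segment. The other 2 did not pass (log2 differences of 0.80 and 1.67, adjusted p = 0.40 and 0.43).

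C3 itself (chr17:57203970-57228136, GRCm38) could not check the labels. Its normalized counts after glycerol were 3729, 1712, 2783 and 4718 in WT replicates 1 to 4 and 8008, 1457, 5495 and 1587 in replicates 1 to 4 labelled C3-/-. The groups overlapped, with the 2 highest values in the list 2 libraries labelled C3-/-. After PBS the values were 335 to 471 in WT and 564 to 1139.7 in libraries labelled C3-/-, which were the higher ones. The log2 difference between the genotypes (C3-/- minus WT, on the scale of log2 of the normalized count + 1, with its standard error) was 0.07 ± 0.48 after glycerol (limma adjusted p = 0.95) and -0.78 ± 0.31 within list 1 (adjusted p = 0.072). Signal from the rest of a deleted gene can remain, so the total does not test the genotype, and every direction below rests on the labels. Leaving out single libraries moved the difference over 8 libraries between -0.37 and 0.44.

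Between the glycerol groups, 2025 of the 18035 genes were called at a limma adjusted p under 0.05, the threshold used throughout. Libraries labelled C3-/- were higher for 1150 genes (6.38%) and lower for 875 (4.85%), and the median log2 difference of all tested genes was 0.036. For 2035 genes (11.3%) the 4 values of one genotype did not overlap the 4 of the other. Within list 1 the counts were 2795 higher (15.5%) and 2637 lower (14.6%). Of the 2025 genes called over 8 libraries, 1825 were also called within list 1 in the same direction and none had the opposite sign there. List 1 is a subset of the same libraries, so this is no independent support. Leaving out WT glycerol replicate 4 gave 4396 calls over 7 libraries, leaving out C3-/- glycerol replicate 2 or 4 gave 2566 or 3577 in list 1, and fitting the 8 glycerol libraries without the PBS libraries gave 297.

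The genotypes also differed without glycerol. After PBS, 187 genes were higher (1.04%) and 215 lower (1.19%) in libraries labelled C3-/-. With the Y-linked level as a covariate 150 were called in all, against 402 without it. Ddx3y was at 1729 to 2302 in the WT PBS libraries and at 0, 1.1, 0 and 1396 in C3-/- PBS replicates 1 to 4. Xist was at 17873, 16098, 16878 and 24.0 in the latter. The labels thus largely coincide with this split after PBS, and their parts in differences after PBS can hardly be told apart. When the same 8 PBS libraries were fitted with list 1 alone, 1675 were higher (9.29%) and 1806 lower (10%). The PBS and glycerol comparisons share no library. Of the genes called over the 8 glycerol libraries, 769 were called after PBS in that fit with the same direction, which is 38.0% of the glycerol calls and 22.1% of the PBS calls. The interaction test, which asks whether the genotype difference after glycerol differs from that after PBS, called 40 genes with a positive (0.222%) and 39 with a negative value (0.216%). Within list 1 it called 881 (4.88%) and 977 (5.42%). The interaction over 16 libraries called 79 genes in all, 225 without WT glycerol replicate 4, 179 without C3-/- glycerol replicate 1 and 47 without WT glycerol replicate 1. Within list 1 it called 739 without C3-/- glycerol replicate 2 and 799 without replicate 4.

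Many of the widest differences were there with and without glycerol. Chd9, a chromatin remodeller gene (chr8:90828352-91054516), had 115482, 125409, 101087 and 355471 in WT glycerol libraries and 459, 311, 612 and 375 in those labelled C3-/-, with 38391 to 59528 and 231 to 292 after PBS. Every WT library was thus far above every library labelled C3-/-, in both conditions, and the log2 difference after glycerol was -8.47 ± 0.33 (adjusted p = 1.9e-09). Gvin1, an interferon-inducible very large GTPase gene (chr7:106156556-106215326), was at 2755, 2402, 2508 and 1452 in WT glycerol libraries and listed at 0 in all 4 labelled C3-/-. After PBS it was at 899.6 to 1297 in WT and listed at 0 in 3 of the 4 libraries labelled C3-/-, with 12.7 in the other. Ugt2b38, a glucuronosyltransferase gene, had 11769, 2871, 14728 and 5605 against 7.70, 1.41, 7.83 and 0.85, a log2 difference of -10.72 ± 0.65 (adjusted p = 9.9e-08; -11.87 in list 1). Trim12a (-8.32 ± 0.60) and Camk2b, a calcium and calmodulin-dependent kinase gene (-5.19 ± 0.31), were lower as well. Gvin1, Ugt2b38, Trim12a and Klk1b22 belong to families of near-identical genes among which the counting could split reads, so their values are uncertain.

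On the other side, Klk1b22, a kallikrein-related peptidase gene, had 3.03, 11.9, 6.92 and 0 in WT glycerol libraries and 796, 752, 1538 and 488 in those labelled C3-/- (7.51 ± 0.59, adjusted p = 1.4e-06; 6.35 in list 1), with 13.2 to 26.1 and 1007 to 1468 after PBS. Ifi44l, an interferon-induced gene, was at 0.86, 1.82, 0.86 and 0 against 193, 190.3, 403 and 147 (6.94 ± 0.37, adjusted p = 2.3e-08; 6.30 in list 1). Cacna2d2, a calcium channel subunit gene, had a difference of 5.49 ± 0.56. In none of the 8 genes named so far after C3 did the interaction test over 16 libraries pass. Within list 1 it was called for Chd9 (-0.89 ± 0.24, adjusted p = 0.036) and Camk2b (-1.68 ± 0.42, adjusted p = 0.027). Those calls ended for Chd9 without C3-/- glycerol replicate 2 (0.14), C3-/- glycerol replicate 4 (0.066), WT glycerol replicate 1 (0.058) or WT glycerol replicate 2 (0.061), and for Camk2b without C3-/- glycerol replicate 2 (0.072), C3-/- glycerol replicate 4 (0.094) or WT glycerol replicate 2 (0.051), adjusted p in parentheses. The 64 other tested genes within 5 Mb of C3 on chromosome 17 had 5 genes higher and 7 lower over 8 libraries (18.8% against 11.2% of all tested genes) and 8 higher and 5 lower after PBS in the list 1 fit (20.3% against 19.3%).

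A second kind of gene differed after glycerol and not detectably after PBS. Sox9, a transcription factor gene of regenerating tubule cells, was at 1202, 788, 890.5 and 2645 in WT glycerol libraries and 91.0, 57.4, 27.2 and 58.7 in those labelled C3-/- (-4.48 ± 0.43, adjusted p = 1.1e-05), with 9.61 to 19.2 and 11.6 to 28.8 after PBS. The lowest WT value was over 8 times the highest labelled C3-/-, and the interaction was -4.86 ± 0.61 (adjusted p = 0.0029). Fut2, a fucosyltransferase gene, was at 225, 260.4, 169 and 205 against 1.29, 4.24, 3.02 and 2.94 (interaction -5.06 ± 0.62, adjusted p = 0.0027). Il1f6, which encodes interleukin-36 alpha, had 93.6, 214, 119 and 130.2 against 11.6, 2.36, 1.57 and 8.54 and was listed at 0 in all PBS libraries (interaction -4.56 ± 0.69, adjusted p = 0.011). Chil3, a chitinase-like protein gene of myeloid cells (interaction -3.93 ± 0.78, adjusted p = 0.039), and Fgg, the fibrinogen gamma chain gene (interaction -4.53 ± 0.92, adjusted p = 0.045), were called in the same direction. Fut2, Il1f6 and Chil3 passed the filter on low values only through the WT glycerol libraries, since fewer than 4 of the other 12 reached 10, so they had to be high there and their tests are no more than a description. The interaction call of Chil3 ended without C3-/- glycerol replicate 2 (0.056), C3-/- glycerol replicate 3 (0.061), WT glycerol replicate 1 (0.08) or WT glycerol replicate 2 (0.052), and that of Fgg without WT glycerol replicate 1 (0.089), WT glycerol replicate 2 (0.07) or WT glycerol replicate 3 (0.058), adjusted p in parentheses.

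In genes with the opposite interaction WT libraries were low after glycerol. Nccrp1 (chr7:28543596-28547254) was at 30.8, 10.9, 31.0 and 16.8 in WT glycerol libraries and at 4790.4, 2475, 2371 and 1085 in those labelled C3-/- (6.77 ± 0.42, adjusted p = 1.2e-07; 6.16 in list 1). After PBS it had 966 to 1463 in WT and 1324 to 3300.0 in libraries labelled C3-/-, and the interaction was 5.91 ± 0.59 (adjusted p = 0.00098). The sodium-activated potassium channel gene Kcnt1 had 12.2, 20.1, 28.1 and 74.7 against 1032, 1548, 4103 and 526 (interaction 4.99 ± 0.76, adjusted p = 0.011), and Ppp1r1b, a phosphatase inhibitor gene, 181, 113, 236 and 79.4 against 2252, 1944, 2176 and 1574 (interaction 3.54 ± 0.40, adjusted p = 0.0025). In each of the 3 genes no WT glycerol library reached the lowest library labelled C3-/-. Wfdc15b (interaction 2.91 ± 0.42, adjusted p = 0.0098) and Lypd2 (interaction 4.20 ± 0.68, adjusted p = 0.012) were further genes of this kind. Igsf23 was higher by 5.43 ± 0.54 after glycerol, and its interaction was called within list 1 only (3.45, adjusted p = 0.064, against 3.97, adjusted p = 0.0012).

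**Figure D1:**
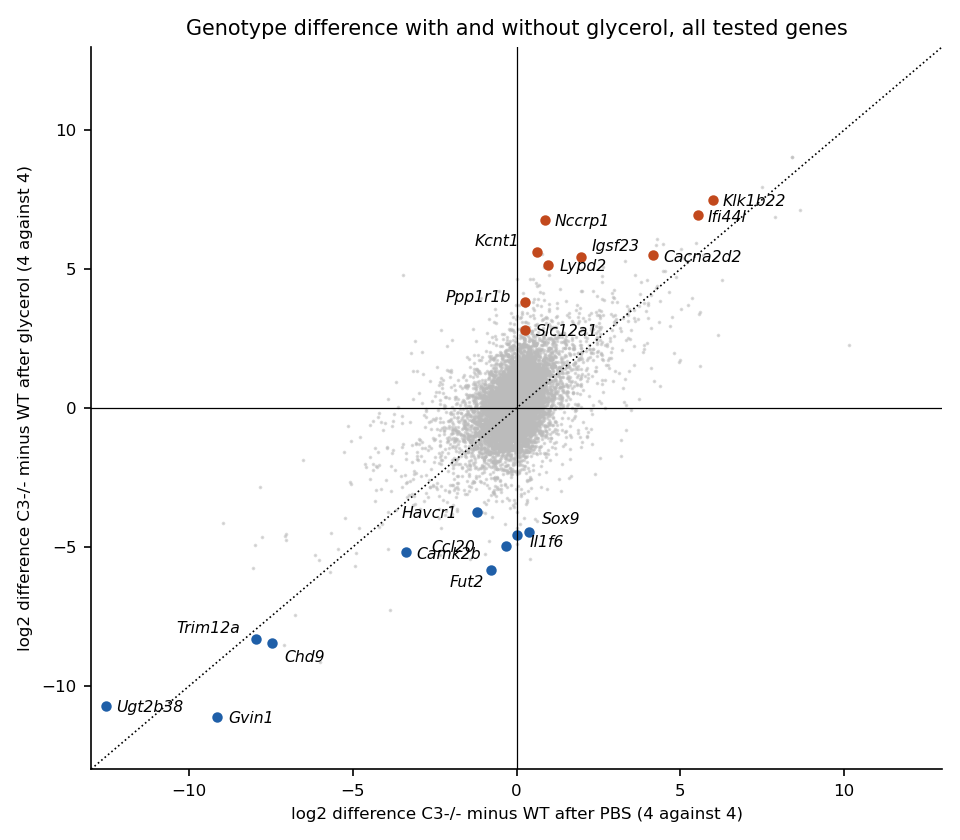
Each grey point is 1 of the 18035 tested genes, with the log2 difference C3-/- minus WT after PBS on the horizontal axis and after glycerol on the vertical axis (4 libraries against 4 in each); the dotted line marks equal differences. Chd9, Trim12a and Klk1b22 lie near the dotted line, and Sox9, Fut2, Nccrp1 and Kcnt1 lie near the vertical axis. The place of Gvin1, listed at 0 in one group, depends on the added 1.

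Many genes of tubule injury and repair were lower in libraries labelled C3-/- after glycerol. Of 24 tested, 13 were called lower and none higher, where 4.85% of all tested genes were lower. Their median log2 difference was -1.46 against 0.036 over all tested genes. Within list 1, 18 were lower (75.0%, against 14.6% of all tested genes) and none higher. After PBS 3 of the 24 were higher and 2 lower in the fit of list 1, where 9.29% and 10% of all tested genes were. None was called after PBS in the fit of 16 libraries. Havcr1, which encodes the injury marker KIM-1 (chr11:46735080-46779578), had 57982, 46259, 52729 and 28049.5 in WT glycerol libraries and 3449.7, 3579, 1088 and 9458 in those labelled C3-/-. The groups did not overlap, and the difference was -3.73 ± 0.57 (adjusted p = 0.00071), 13.3-fold lower. Both groups stood far above PBS, where Havcr1 was at 21.5 to 94.5 and 7.52 to 22.6, and the interaction was not called (-2.52 ± 0.81, adjusted p = 0.21). Spp1, the osteopontin gene, had 784466, 1091030.0, 652031 and 378675 against 183206, 135040.0, 35565 and 182393 (-2.59 ± 0.47, adjusted p = 0.0022).

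The injury marker gene Lcn2, whose product NGAL binds bacterial siderophores, had 14177, 32840.5, 11427 and 17169.5 in WT and 7394, 3303, 436 and 3737 in libraries labelled C3-/- (-2.79 ± 0.65, adjusted p = 0.012). Its lowest value was in the C3-/- replicate 3, as it was for Havcr1 and Spp1. Timp1, a metalloproteinase inhibitor gene, differed by -4.17 ± 0.73 (adjusted p = 0.0018), the annexin gene Anxa2 by -2.05 ± 0.28 (adjusted p = 0.00027), and Clu, which encodes the chaperone and terminal complement regulator clusterin, by -3.41 ± 0.59 (adjusted p = 0.0017; -2.63 in list 1). Krt20, an epithelial keratin gene, did not pass: it had 3373, 8226, 2460.0 and 2373 in WT against 1758, 1427, 58.3 and 1646, with a difference of -2.34 ± 1.06 (adjusted p = 0.19). All 4 WT values were above all those labelled C3-/-, of which replicate 3 was the lowest. Krt20 is also 1 of 6 urothelium markers, none of which was called over 8 libraries. The other 5 differed by -1.25 to 1.05, and the part of such cells was not tested.

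**Figure D2:**
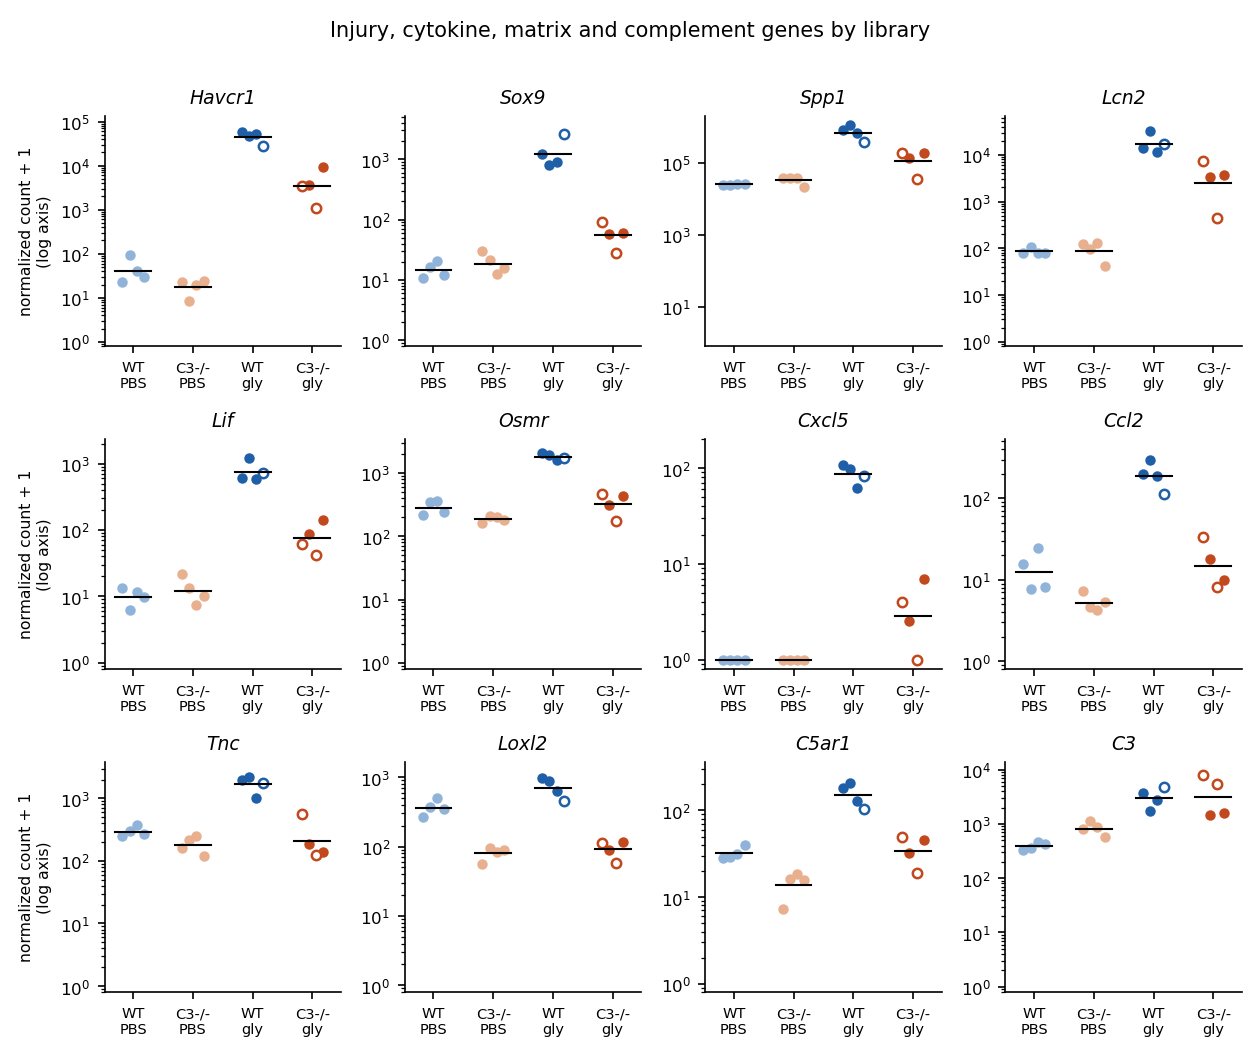
Normalized counts + 1 on a log axis for 12 genes in each library; points are libraries, open points the 3 libraries of list 2, and black bars the means on the log scale. For Havcr1, Sox9, Lif, Osmr, Cxcl5, Ccl2, Tnc, Loxl2 and C5ar1 all WT glycerol points lie above all C3-/- glycerol points, and for C3 they overlap.

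Most chemokine genes that were called were lower in libraries labelled C3-/-, and 2 were higher. Of 12 tested CC and CX3C chemokines, 9 were lower (75.0%, against 4.85% of all tested genes) and none higher over 8 libraries (median -1.98). Within list 1, 10 were lower (83.3%, against 14.6%). Of 11 tested CXC chemokines, 6 were lower (54.5%, against 4.85%) and 2 higher (18.2%, against 6.38%), with a median of -2.27. Within list 1 the counts were 8 (72.7%, against 14.6%) and 2 (18.2%, near the 15.5% of all tested genes). Over 8 libraries the higher CXC count was 1 without C3-/- glycerol replicate 3. In list 1 it was 1 without C3-/- glycerol replicate 2, C3-/- glycerol replicate 4, WT glycerol replicate 2 or WT glycerol replicate 3. Of these genes 5 CC and 3 CXC genes, among them Ccl7, Ccl12, Ccl20, Cxcl3 and Cxcl5, passed the filter only through the WT glycerol libraries and so had to be high there. Among the others 5 of 7 CC genes (median -1.59) and 3 of 8 CXC genes (median -0.59) were lower. The fits of list 1 also called 4 of the CC and 6 of the CXC genes lower after PBS, where 10% of all tested genes were lower. The fit of 16 libraries called 1 and 2 of them lower after PBS, where 1.19% of all tested genes were. The bases before the transcription start of 3 of the genes are shown because they hold a match to 9 letters of the NF-kB site, GGNNTTTCC (GGAAANNCC on the other strand), printed in capitals. The sequences are RefSeq windows of 250 bases on GRCm38.p6, 5′ to 3′ on the gene's strand, and both the genes and the motif were chosen after their values were seen.
Cxcl1 (chr5:90890995-90891244, plus strand): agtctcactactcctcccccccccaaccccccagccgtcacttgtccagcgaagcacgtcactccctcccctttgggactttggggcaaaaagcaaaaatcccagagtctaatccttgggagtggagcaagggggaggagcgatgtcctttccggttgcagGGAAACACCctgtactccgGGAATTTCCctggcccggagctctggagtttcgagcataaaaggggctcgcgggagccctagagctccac
Cxcl3 (chr5:90785851-90786100, plus strand): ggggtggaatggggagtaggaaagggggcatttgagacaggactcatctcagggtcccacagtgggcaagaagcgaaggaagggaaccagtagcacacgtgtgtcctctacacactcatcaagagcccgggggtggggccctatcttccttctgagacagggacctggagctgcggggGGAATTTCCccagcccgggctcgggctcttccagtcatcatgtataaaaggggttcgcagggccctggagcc
Ccl20 (chr1:83116516-83116765, plus strand): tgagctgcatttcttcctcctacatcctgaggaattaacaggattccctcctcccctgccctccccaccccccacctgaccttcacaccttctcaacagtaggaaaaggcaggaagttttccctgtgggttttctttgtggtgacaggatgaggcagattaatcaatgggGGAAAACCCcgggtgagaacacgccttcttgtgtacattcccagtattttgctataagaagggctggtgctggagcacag
Of all 32851 promoter windows of this length 4.93% held such a match on either strand, as did 5 of the 7 tested CXC genes and 2 of the 8 tested CC genes with a window. The matches begin 89 and 70 bases before the start in Cxcl1, 72 in Cxcl3 and 80 in Ccl20. A match of letters is a description and shows no binding.

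Cxcl1, a ligand of the neutrophil receptor CXCR2, had 3278, 1466, 2695 and 3319 in WT glycerol libraries and 1193, 424, 209 and 471 in those labelled C3-/- (-2.44 ± 0.49, adjusted p = 0.0046). It was also lower after PBS, with 41.0 to 119 in WT and 4.81 to 15.2 in libraries labelled C3-/-, and the interaction was 0.48 ± 0.69 (adjusted p = 0.94). Cxcl5, another ligand of that receptor, was listed at 0 in all 8 PBS libraries. After glycerol it had 106, 96.2, 61.4 and 82.4 in WT and 2.97, 1.54, 0 and 5.99 in libraries labelled C3-/-, a difference of -4.89 ± 0.51 (adjusted p = 2.2e-05) with an interaction of -4.89 ± 0.72 (adjusted p = 0.0098). Cxcl3, a further CXCR2 ligand, had 26.0, 23.8, 18.8 and 30.2 against 0, 3.87, 1.56 and 0 (-3.75 ± 0.51, adjusted p = 0.00026) and was listed at 0 in all 8 PBS libraries. Both Cxcl5 and Cxcl3 passed the filter only through the WT glycerol libraries, so their tests are no more than a description. The 2 higher genes were Cxcl11, an interferon-inducible ligand of CXCR3 (7.64, 5.43, 7.68 and 25.0 against 76.7, 40.9, 127 and 64.7, 2.77 ± 0.46, adjusted p = 0.0012), and Cxcl12, a stromal chemokine gene named after its value was seen (1.22 ± 0.32, adjusted p = 0.022). The call of Cxcl12 ended without C3-/- glycerol replicate 3 (0.057), adjusted p in parentheses.

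Ccl2, the main attractant of CCR2-bearing monocytes (chr11:82035571-82037453), had 201, 291, 187 and 112 in WT glycerol libraries and 32.4, 16.8, 7.12 and 9.0 in those labelled C3-/- (-3.67 ± 0.49, adjusted p = 0.00021), 12.7-fold lower. Its neighbours and fellow CCR2 ligands Ccl7 (-4.16 ± 0.58, adjusted p = 0.00029) and Ccl12 (-3.30 ± 0.43, adjusted p = 0.00017) were lower too. Ccl20, a ligand of CCR6, had 122, 205, 101 and 195 against 9.65, 5.47, 0.96 and 2.92 (-4.97 ± 0.58, adjusted p = 6.5e-05) and at most 2.18 after PBS. For these 4 genes no library labelled C3-/- reached the lowest WT library, and the interaction was called for Ccl20 (-4.64, adjusted p = 0.021) and Ccl12 (-3.07, adjusted p = 0.039). All but Ccl2 passed the filter only through the WT glycerol libraries, so the tests of Ccl7, Ccl12 and Ccl20 are no more than a description. The call of Ccl20 ended without WT glycerol replicate 2 (0.053) and that of Ccl12 without C3-/- glycerol replicate 2 (0.062), C3-/- glycerol replicate 3 (0.065), C3-/- glycerol replicate 4 (0.057), WT glycerol replicate 1 (0.081), WT glycerol replicate 2 (0.09) or WT glycerol replicate 3 (0.062), adjusted p in parentheses. The interaction was not called for Ccl2 (-2.42, adjusted p = 0.15) or Ccl7 (-3.80, adjusted p = 0.059).

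Many genes of the interleukin-6 family and of the acute phase downstream of it were lower. Of 17 tested, 9 were lower (52.9%, against 4.85% of all tested genes) and none higher over 8 libraries (median -2.48). Within list 1, 12 were lower (70.6%, against 14.6%), with a median of -1.80. After PBS 2 were higher and 4 lower in the list 1 fit, where 9.29% and 10% of all tested genes were. None was called after PBS in the fit of 16 libraries. Without Il6, which passed the filter only through the WT glycerol libraries, 8 of 16 were lower over 8 libraries. Il6 had 120.2, 208, 103 and 38.9 in WT and 20.2, 11.2, 2.46 and 10.3 in libraries labelled C3-/- (-3.34 ± 0.61, adjusted p = 0.0023). Lif, a cytokine of the same family, had 612, 1214, 579 and 708 against 60.3, 85.0, 40.8 and 141 (-3.31 ± 0.42, adjusted p = 0.00014). Osmr, the oncostatin M receptor gene, had 2029.7, 1889, 1565 and 1727 against 463, 308, 174 and 429.5 (-2.48 ± 0.27, adjusted p = 3.1e-05). The groups did not overlap in any of the 3, and the interaction was called for Lif (-3.62, adjusted p = 0.012) and Osmr (-1.88, adjusted p = 0.041) and not for Il6 (-2.70, adjusted p = 0.21). That of Osmr ended without C3-/- glycerol replicate 2 (0.078), WT glycerol replicate 1 (0.088) or WT glycerol replicate 2 (0.093), adjusted p in parentheses.

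Among genes that STAT3 is known to drive below these receptors, Socs3, a feedback inhibitor, had 2068, 3165, 1841 and 3050.1 in WT glycerol libraries and 637, 354, 106 and 356 in those labelled C3-/- (-3.01 ± 0.44, adjusted p = 0.00048). Fgb, the fibrinogen beta chain gene, had 5788, 3852, 2802 and 4708 against 661, 544, 32.4 and 317 (-4.06 ± 0.69, adjusted p = 0.0015; -3.25 in list 1), and Fgg 22623, 9522, 13041 and 13630.5 against 1305, 1503, 125 and 2517 (-3.98 ± 0.65, adjusted p = 0.0011; -2.86 in list 1). In all 3 the groups were apart, with the lowest value in the C3-/- replicate 3. The windows before the start of Socs3 and Fgb, chosen after the values were seen, each hold 1 match to the STAT letters TTCNNNGAA, which read the same on both strands and are printed in capitals.
Socs3 (chr11:117969367-117969616, minus strand): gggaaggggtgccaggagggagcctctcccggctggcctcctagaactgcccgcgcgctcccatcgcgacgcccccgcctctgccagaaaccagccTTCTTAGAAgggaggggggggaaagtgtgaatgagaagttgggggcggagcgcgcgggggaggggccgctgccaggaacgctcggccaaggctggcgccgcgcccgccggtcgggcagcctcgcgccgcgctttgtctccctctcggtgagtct
Fgb (chr3:83049864-83050113, minus strand): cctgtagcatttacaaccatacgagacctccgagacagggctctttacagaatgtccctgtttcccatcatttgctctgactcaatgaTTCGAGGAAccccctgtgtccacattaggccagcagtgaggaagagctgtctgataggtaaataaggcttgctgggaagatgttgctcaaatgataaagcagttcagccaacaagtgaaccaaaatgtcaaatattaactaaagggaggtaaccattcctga
The match begins 154 bases before the start in Socs3 and 162 in Fgb. Of all windows 7.02% held one, as did 3 of the 16 tested genes of the list with a window, the third being Fga.

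Of 14 cytokine and sensor genes 5 were lower (35.7%, against 4.85% of all tested genes) and none higher. The count was 8 over 7 libraries without WT glycerol replicate 4. In list 1, 10 were lower (71.4%, against 14.6% of all tested genes), and 6 without C3-/- glycerol replicate 4. Il1b, the interleukin-1 beta gene, had 355, 504, 387 and 228 against 34.7, 52.0, 21.2 and 97.1 (-2.98 ± 0.42, adjusted p = 0.00033) and was also lower after PBS (20.9 to 44.2 against 85.0 to 178 in WT). Il33, an alarmin gene (-1.75 ± 0.29, adjusted p = 0.0011), and Cd14, a lipopolysaccharide co-receptor gene (-2.30 ± 0.32, adjusted p = 0.0003), were lower, and so were Myd88 (-0.66 ± 0.17, adjusted p = 0.021) and Tgfb1 (-1.16 ± 0.26, adjusted p = 0.009), the latter named after its value was seen. The call of Myd88, an adaptor below Toll-like receptors, ended without C3-/- glycerol replicate 2 (0.06), C3-/- glycerol replicate 3 (0.052) or WT glycerol replicate 2 (0.061), adjusted p in parentheses. Of 20 immediate early and NF-kB factor genes 8 were lower (40.0%, against 4.85% of all tested genes) and none higher. The lower count was 5 when WT glycerol replicate 1 or 2 or C3-/- glycerol replicate 3 was left out. Nfkbiz, an atypical IkB gene, differed by -1.41 ± 0.27 and Relb, an NF-kB subunit gene, by -1.35 ± 0.24. Of 16 interferon-stimulated genes 3 were lower over 8 libraries (18.8%, against 4.85% of all tested genes) and 12 within list 1 (75.0%, against 14.6%). Over 8 libraries the count was 5 without C3-/- glycerol replicate 1 and 6 without WT glycerol replicate 4, and in list 1 it was 3 without C3-/- glycerol replicate 4. Oasl2 differed by -1.03 ± 0.22 and Mx1 by -2.04 ± 0.42.

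Of 18 complement component genes tested, C3 among them, 1 was higher (5.56%, against 6.38% of all tested genes) and 2 were lower (11.1%, against 4.85%), with a median of -0.13. Within list 1 the counts were 1 (5.56%, against 15.5%) and 6 (33.3%, against 14.6%). The latter was 3 without C3-/- glycerol replicate 4 and 2 without WT glycerol replicate 1. C8a, a subunit of the membrane attack complex (chr4:104815679-104876398), had 48.8, 47.1, 118 and 199 in WT glycerol libraries and 1973, 411, 2350.2 and 345 in those labelled C3-/- (3.38 ± 0.57, adjusted p = 0.0015; 2.52 in list 1), with 542 to 622 and 567 to 697 after PBS. All 4 C3-/- values were above WT, with the 2 list 2 libraries the highest. C7, of the same complex, was lower after glycerol (205, 140.0, 209 and 203 against 66.3, 54.1, 51.5 and 112, -1.46 ± 0.30, adjusted p = 0.0055) and after PBS (13.5 to 29.6 against 136 to 220.0 in WT). The lectin pathway protease gene Masp1 differed by -1.28 ± 0.30. For Cfb, of the alternative pathway C3 convertase, the values were 4539, 2025, 4774 and 11539 against 4899.5, 2087, 15631 and 2683, and the groups overlapped (-0.06 ± 0.54, adjusted p = 0.96).

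Of 18 complement receptors and regulators 5 were lower (27.8%, against 4.85% of all tested genes) and 1 was higher (5.56%, near the 6.38% of all tested genes), with a median of -0.46. Within list 1, 8 were lower (44.4%, against 14.6%) and 1 higher (5.56%, against 15.5%). There the higher count was 0 without C3-/- glycerol replicate 2 or C3-/- glycerol replicate 4. After PBS 10 were lower and none higher in the list 1 fit, where 10% of all tested genes were lower. In the fit of 16 libraries 3 were lower after PBS, where 1.19% of all tested genes were. C5ar1, the C5a receptor gene, had 179, 206, 128 and 104 in WT glycerol libraries and 48.8, 31.1, 18.1 and 44.9 in those labelled C3-/- (-2.12 ± 0.37, adjusted p = 0.0017), with 27.5 to 39.3 and 6.37 to 17.3 after PBS. The groups were apart both with and without glycerol. C5ar2, the second C5a receptor gene, which passed the filter only through the WT glycerol libraries, had 23.6, 23.4, 10.4 and 33.7 against 0, 3.53, 0.88 and 1.71 (-3.33 ± 0.54, adjusted p = 0.0011; -2.44 in list 1), and Itgam, a subunit of complement receptor 3, 377, 359, 319 and 121 against 61.3, 59.7, 7.51 and 42.7 (-2.97 ± 0.54, adjusted p = 0.0023). C3ar1 had 81.2, 85.4, 62.6 and 34.0 against 181, 47.6, 20.2 and 31.5 and did not pass over 8 libraries (-0.34 ± 0.50, adjusted p = 0.73; -0.95 in list 1, adjusted p = 0.0092). Its list 1 call ended without C3-/- glycerol replicate 4 (0.1), adjusted p in parentheses. Its highest value was in the C3-/- replicate 1 of list 2. Named after their values were seen, Itgax, a subunit of complement receptor 4, was the fifth lower gene (-1.53 ± 0.29, adjusted p = 0.0034) and Cr2, the C3d receptor gene, the higher one (1.85 ± 0.43, adjusted p = 0.011; 1.06 in list 1).

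Markers of neutrophils and of some monocyte and macrophage states were lower in libraries labelled C3-/-, with and without glycerol. In bulk tissue fewer cells of a type and less RNA per cell cannot be told apart. Of 12 neutrophil markers 6 were tested, and 5 of these were lower after glycerol (83.3%, against 4.85% of all tested genes). After PBS 5 were lower in the list 1 fit and 2 in the fit of 16 libraries, where 10% and 1.19% of all tested genes were. The list 1 count after glycerol was 5 (83.3%, against 14.6% of all tested genes). It was 0 without C3-/- glycerol replicate 2, 3 without WT glycerol replicate 1 and 2 without WT glycerol replicate 2. Retnlg and 1 other passed the filter only through the WT glycerol libraries, and all 4 of the rest were lower over 8 libraries. The summed level of the 7 markers present in the matrix was 536 to 1232 in WT glycerol libraries, 77.9 to 246 in C3-/- glycerol, 154 to 248 in WT PBS and 41.3 to 64.5 in C3-/- PBS. The alarmin subunit gene S100a8 had 144, 335, 139 and 103 against 20.5, 8.13, 4.94 and 36.8 (-3.50 ± 0.61, adjusted p = 0.0018), and S100a9 219, 447, 215 and 241 against 49.6, 16.9, 14.8 and 72.4 (-3.07 ± 0.58, adjusted p = 0.003). The groups did not overlap in either gene. Csf3r (-1.93 ± 0.42, adjusted p = 0.0072), Retnlg (-2.91 ± 0.68, adjusted p = 0.011; -2.05 in list 1) and, named after its value was seen, Mmp9 (-1.97 ± 0.51, adjusted p = 0.021; -1.92 in list 1, adjusted p = 0.05) were the other 3. The call of Mmp9 ended without C3-/- glycerol replicate 2 (0.058) or WT glycerol replicate 2 (0.076), adjusted p in parentheses. The granule genes Mpo and Elane were not among the genes tested. The part of these cells in the lower chemokine and cytokine genes was not tested.

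Of 19 macrophage and dendritic cell markers 5 were lower (26.3%, against 4.85% of all tested genes) and 1 was higher (5.26%, near the 6.38% of all tested genes). In list 1, 9 were lower (47.4%, against 14.6%) and 1 higher (5.26%, against 15.5%). The summed level of the list overlapped between the genotypes (10737 to 16845 in WT and 8651 to 20755 in C3-/- glycerol libraries). Ccr2, the monocyte chemokine receptor gene, had 411, 500.1, 267 and 164 against 124, 119, 76.6 and 119.9 (-1.50 ± 0.31, adjusted p = 0.0053). Fcgr1, a high-affinity IgG receptor gene, differed by -1.89 ± 0.30, and Mrc1, named after its value was seen, by -0.67 ± 0.20 (adjusted p = 0.044). The call of Mrc1 ended without C3-/- glycerol replicate 2 (0.1), C3-/- glycerol replicate 3 (0.1), C3-/- glycerol replicate 4 (0.075), WT glycerol replicate 1 (0.091) or WT glycerol replicate 2 (0.1), adjusted p in parentheses. Itgam and Itgax are the other 2, also counted among complement receptors. Csf1r, the receptor on which tissue macrophages depend, was higher, with 884, 761, 946 and 1308 in WT and 2216, 2109, 3473 and 1470.1 in libraries labelled C3-/- (1.21 ± 0.23, adjusted p = 0.0035). The 2 genotypes did not overlap for Csf1r or Ccr2, and the direction differed between them.

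Plasma cell transcripts were higher in libraries labelled C3-/- after glycerol. Of 7 B cell and plasma cell markers 3 were higher (42.9%) and none lower, both over 8 libraries and in list 1. Of all tested genes 6.38% and 15.5% were higher in these comparisons. None of the 7 was called after PBS. Jchain, the joining chain gene of IgA and IgM, had 37.5, 41.8, 20.7 and 17.5 against 186, 506, 56.8 and 335 (2.86 ± 0.66, adjusted p = 0.011; 3.65 in list 1). Ighm, the IgM heavy chain gene, had 328, 108, 141 and 147 against 352, 1291, 275 and 1557 (2.01 ± 0.48, adjusted p = 0.013; 3.05 in list 1), and Mzb1, of antibody-secreting cells, was higher by 1.66 ± 0.44 (adjusted p = 0.023). The call of Mzb1 ended without C3-/- glycerol replicate 3 (0.058), WT glycerol replicate 2 (0.078) or WT glycerol replicate 3 (0.055), adjusted p in parentheses. Outside the list, the kappa chain gene Igkc had 124, 108, 50.7 and 466 against 7542, 1885, 1077 and 1306 (3.97 ± 0.77, adjusted p = 0.0038) and the IgA gene Igha 41.2, 87.3, 47.7 and 201 against 1396, 1063, 740.3 and 368 (3.36 ± 0.64, adjusted p = 0.0033). The interaction of Igkc was called within list 1 (5.24 ± 0.97, adjusted p = 0.0078) and not over 16 libraries (5.07 ± 1.09, adjusted p = 0.061). That of Igha was likewise called within list 1 (4.11 ± 0.96, adjusted p = 0.021), where the call ended without C3-/- glycerol replicate 2 (adjusted p = 0.1), and not over 16 libraries (4.0 ± 0.91, adjusted p = 0.069). Immunoglobulin genes share sequence, so their counts are uncertain. The other 4 genes of the list, all of the B cell surface, did not pass. Of 6 T and NK cell markers 1 was higher (16.7%, against 6.38% of all tested genes). It was Trac, a T cell receptor constant gene (1.86 ± 0.40, adjusted p = 0.0071).

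Of 13 endothelial markers 3 were called lower (23.1%, against 4.85% of all tested genes), and 5 without WT glycerol replicate 4. In list 1, 5 were lower (38.5%, against 14.6%) and 2 higher (15.4%, near the 15.5% of all tested genes). The latter count was 0 without C3-/- glycerol replicate 2 or WT glycerol replicate 2. It was 1 without C3-/- glycerol replicate 4, WT glycerol replicate 1 or WT glycerol replicate 3. Selp and Sele passed the filter only through the WT glycerol libraries, and 2 of the other 11 were lower over 8 libraries. All 3 lower genes are adhesion molecules that inflammation is known to induce. Selp, the P-selectin gene, which passed the filter only through the WT glycerol libraries, had 83.2, 102, 57.1 and 122 in WT glycerol libraries and 5.99, 15.1, 2.80 and 5.64 in those labelled C3-/- (-3.60 ± 0.53, adjusted p = 0.00051; -2.94 in list 1). Icam1 differed by -1.17 ± 0.27 and Vcam1 by -1.10 ± 0.29, and the call of Vcam1 ended without C3-/- glycerol replicate 3 (0.066), WT glycerol replicate 1 (0.065), WT glycerol replicate 2 (0.071) or WT glycerol replicate 3 (0.059), adjusted p in parentheses. The summed level of the endothelial list overlapped (18099 to 20142 in WT and 14905 to 20896 in C3-/- glycerol). None of 8 podocyte markers was called over 8 libraries, with a median of -0.09, and the nephrin gene Nphs1 had a difference of 0.25 ± 0.19 (adjusted p = 0.46; 0.44 in list 1, adjusted p = 0.039). Its list 1 call ended without C3-/- glycerol replicate 2 (0.24), C3-/- glycerol replicate 4 (0.064), WT glycerol replicate 1 (0.07) or WT glycerol replicate 3 (0.1), adjusted p in parentheses.

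Matrix and fibroblast genes were lower in libraries labelled C3-/-. Of 19 tested 13 were lower (68.4%, against 4.85% of all tested genes) and none higher (median -1.55). In list 1, 15 were lower (78.9%, against 14.6%). After PBS 8 of the 19 were lower and none higher in the list 1 fit, where 10% of all tested genes were lower. In the fit of 16 libraries 1 was lower after PBS, where 1.19% of all tested genes were. Tnc, the tenascin-C gene, had 1952, 2239.8, 1007 and 1780.2 in WT glycerol libraries and 565, 186, 123 and 138 in those labelled C3-/- (-3.02 ± 0.41, adjusted p = 0.00025). Loxl2, a collagen cross-linking enzyme gene, had 971, 889.9, 627 and 459.8 against 112, 88.1, 57.0 and 116 (-2.96 ± 0.29, adjusted p = 1.4e-05) and was apart after PBS as well (269 to 493 against 55.9 to 93.3). Fn1, the fibronectin gene, had 1905, 1909.6, 1230.0 and 1214 against 423, 465, 335 and 417 (-1.91 ± 0.24, adjusted p = 0.00015). In all 3 every WT glycerol library was above every library labelled C3-/-. The basement membrane gene Col4a1 differed by -0.96 ± 0.20, and the fibrillar collagen genes Col3a1 and Col1a1, named after their values were seen, by -2.93 ± 0.39 (adjusted p = 0.00023) and -2.32 ± 0.36 (adjusted p = 0.00083).

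Of 12 genes responsive to TGF-beta or YAP 5 were lower (41.7%, against 4.85% of all tested genes) and none higher (median -1.11). In list 1, 7 were lower (58.3%, against 14.6%) and 1 higher (8.33%, against 15.5% of all tested genes). The latter count was 0 without C3-/- glycerol replicate 2, WT glycerol replicate 1 or WT glycerol replicate 3. After PBS 6 were lower in the list 1 fit and 4 in the fit of 16 libraries, where 10% and 1.19% of all tested genes were. Ankrd1, a YAP target, had 661, 1332, 659 and 1263 against 345, 132, 204 and 152 (-2.25 ± 0.34, adjusted p = 0.00059). Tgfbi differed by -2.10 ± 0.24 and Ccn2, the connective tissue growth factor gene, by -1.70 ± 0.26. Tgfb1, given above, is also among the lower genes.

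Counts for proliferation and cell death depended on single libraries. Of 16 cell cycle genes 5 were lower (31.2%, against 4.85% of all tested genes) and none higher over 8 libraries. In list 1, 12 were lower (75.0%, against 14.6%) and 1 higher (6.25%, against 15.5%), the former 6 without C3-/- glycerol replicate 2. The 8-library count was 1 without WT glycerol replicate 2, 3 without WT glycerol replicate 1 or C3-/- glycerol replicate 3, and 10 without WT glycerol replicate 4. Top2a, the topoisomerase gene of dividing cells, had 246, 276, 207 and 139.5 against 119, 75.5, 82.2 and 40.6 (-1.49 ± 0.34, adjusted p = 0.0095; -2.10 in list 1), and the groups were apart. Of 15 cell death genes 3 were lower and none higher (5 without C3-/- glycerol replicate 1 or WT glycerol replicate 4), and 9 in list 1 (4 without C3-/- glycerol replicate 2). Mcl1 and Bcl2l1, which encode survival proteins of the BCL-2 family, differed by -0.88 ± 0.19 and -0.61 ± 0.15.

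A number of transport and channel genes of the loop of Henle, the distal tubule and the collecting duct were higher in libraries labelled C3-/-. Of 17 loop and distal genes 6 were higher (35.3%, against 6.38% of all tested genes) and none lower (median 0.99). In list 1, 15 were higher (88.2%, against 15.5%), and 7 without C3-/- glycerol replicate 2. Slc12a1, the cotransporter NKCC2 of the thick ascending limb (chr2:125152505-125230002), had 7339, 5724, 10405 and 5128 in WT glycerol libraries and 61938, 67747, 25287 and 52202 in those labelled C3-/- (2.82 ± 0.31, adjusted p = 3.5e-05). After PBS it had 60859 to 68896 and 58568 to 101857, and the interaction was 2.55 ± 0.44 (adjusted p = 0.015). The C3-/- glycerol replicates 1, 2 and 4 were within or near the PBS range, and no WT glycerol library was. Egf, the growth factor gene of the same segments, had 1798, 770.5, 3398 and 180.4 against 4419, 33348, 12484 and 14108 (3.72 ± 0.70, adjusted p = 0.0031), with 56029.7 to 65237 in WT PBS libraries, so every glycerol library of both genotypes was below PBS. Pvalb, the parvalbumin gene of the early distal convoluted tubule, had 35.6, 9.38, 55.9 and 8.52 against 793, 639, 624 and 137 (4.42 ± 0.57, adjusted p = 0.00016; 3.41 in list 1). Umod, the uromodulin gene, did not pass over 8 libraries (102675, 118713, 115901 and 19329 against 72647, 194526, 48871 and 152147, 0.49 ± 0.53, adjusted p = 0.63; 0.62 in list 1, adjusted p = 0.028), and its lowest value was in WT glycerol replicate 4. Its list 1 call ended without C3-/- glycerol replicate 2 (0.23) or WT glycerol replicate 1 (0.085), adjusted p in parentheses.

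Of 16 collecting duct genes 7 were higher (43.8%, against 6.38% of all tested genes) and none lower (median 0.72). In list 1, 11 were higher (68.8%, against 15.5%). Scnn1a, a subunit of the epithelial sodium channel, had 1829, 1713, 1910.0 and 1475 against 3133, 4762, 2354 and 4013 (1.00 ± 0.19, adjusted p = 0.0033). Hsd11b2, which protects the mineralocorticoid receptor from glucocorticoids, differed by 0.99 ± 0.25 (adjusted p = 0.017). Slc4a1, the anion exchanger gene of intercalated cells and red cells, had 366, 122, 447 and 104 against 835, 2411, 915 and 1750.1 (2.64 ± 0.44, adjusted p = 0.0013). No WT value reached the lowest one labelled C3-/- in Scnn1a or Slc4a1. The water channel gene Aqp3, named after its value was seen, differed by 1.40 ± 0.31 (adjusted p = 0.0077). Ren1, the renin gene of the juxtaglomerular cells, was higher after glycerol (1345, 1313, 1271 and 1566 against 4901, 3619, 2625 and 3849, 1.42 ± 0.20, adjusted p = 0.00042) and after PBS (2065 to 3653 against 880.4 to 1218 in WT). Edn1, the endothelin-1 gene, differed by -1.75 ± 0.29 and was lower.

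**Figure D3:**
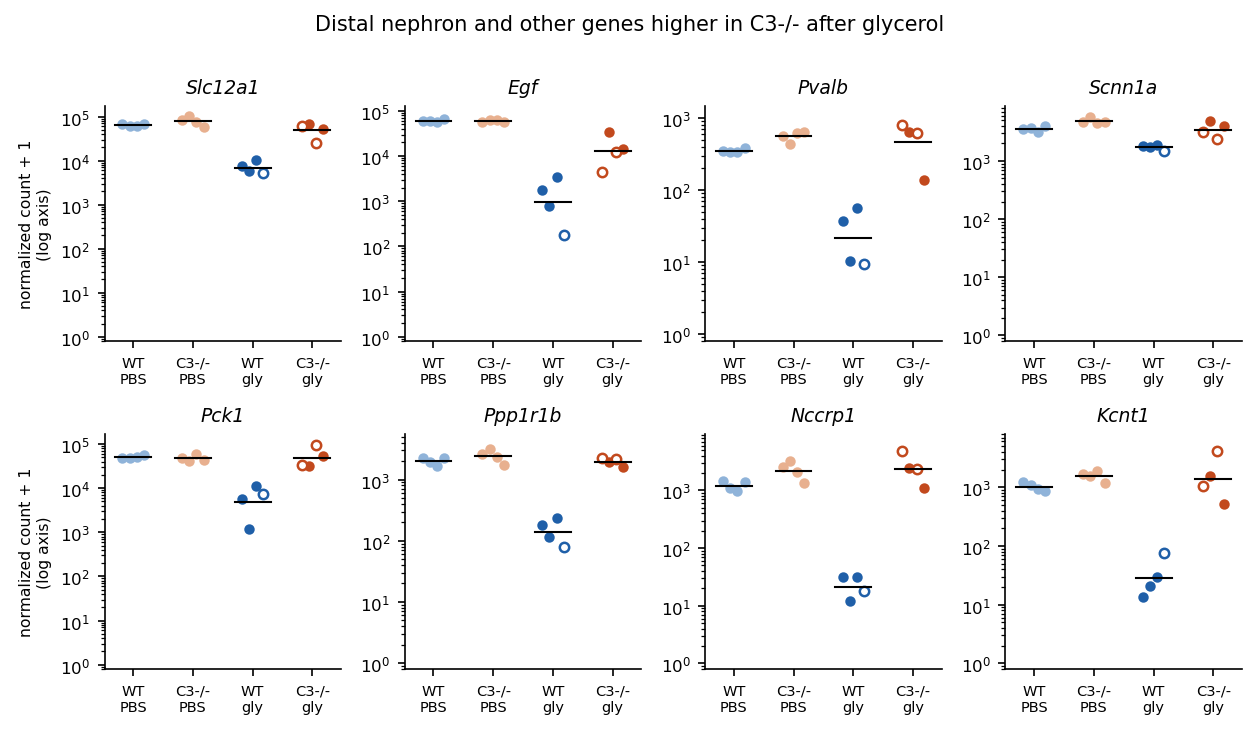
Normalized counts + 1 on a log axis for 8 genes in each library, drawn as for the injury genes, with open points for list 2. All C3-/- glycerol points lie above all WT glycerol points for these 8 genes, and for Egf all glycerol points lie below the WT PBS points.

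Of 26 proximal tubule transport genes 1 was higher and 1 lower over 8 libraries (3.85% each, near the 6.38% and 4.85% of all tested genes), with a median of 0.54. In list 1, 3 were higher (1 without C3-/- glycerol replicate 4, 5 without WT glycerol replicate 2 and 11 without WT glycerol replicate 3) and 1 lower (0 without C3-/- glycerol replicate 2 and 2 without WT glycerol replicate 2). Over 8 libraries the higher count was 0 without any one of WT glycerol replicates 1 and 2 and C3-/- glycerol replicates 3 and 4, and 3 without any one of WT glycerol replicates 3 and 4 and C3-/- glycerol replicate 1. The lower count was 0 without any one of WT glycerol replicates 1 and 3 and C3-/- glycerol replicates 1 and 2. Slc34a1, the main phosphate transporter gene, had 18518, 5164, 25293 and 22199.7 against 19208, 22486, 158390.0 and 27846 (1.29 ± 0.59, adjusted p = 0.2), with the C3-/- replicate 3 the highest. In the same cells Pck1, which encodes the gluconeogenic enzyme PEPCK, had 5771, 1183, 10949.6 and 7334 against 32746, 31421, 92432 and 52076 (3.28 ± 0.53, adjusted p = 0.00097) and 47396 to 55549 in WT after PBS. All WT glycerol values of Pck1 were below all those labelled C3-/-.

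Of 23 genes of fatty acid oxidation and PPAR targets 4 were higher (17.4%, against 6.38% of all tested genes) and 1 was lower (4.35%, near the 4.85% of all tested genes). In list 1, 13 were higher (56.5%, against 15.5%) and 1 lower (4.35%, against 14.6%). In list 1 the higher count was 7 without C3-/- glycerol replicate 2 and 6 without C3-/- glycerol replicate 4, and the lower 2 without WT glycerol replicate 2. Over 8 libraries the higher count was 2 without WT or C3-/- glycerol replicate 2 and 10 without WT glycerol replicate 4, and the lower count was 2 without any one of C3-/- glycerol replicates 2 and 4 and WT glycerol replicate 4. Acaa2, a mitochondrial thiolase gene, had 1025, 931, 1029 and 1654 against 2615, 2117, 4582 and 1941 (1.23 ± 0.24, adjusted p = 0.0037) and 3947 to 4144 in WT against 6151 to 7526 in C3-/- after PBS. Fabp1, a fatty acid binding protein gene, and Acadm, a dehydrogenase gene, named after their values were seen, differed by 3.35 ± 0.89 (adjusted p = 0.024; 4.34 in list 1) and 1.05 ± 0.25 (adjusted p = 0.013). The call of Fabp1 ended without C3-/- glycerol replicate 1 (0.052), C3-/- glycerol replicate 2 (0.052), WT glycerol replicate 1 (0.059) or WT glycerol replicate 2 (0.061), adjusted p in parentheses. Plin2, which coats lipid droplets, was the lower one, with 9983, 15399.9, 6658 and 12427 in WT and 701, 1089, 312 and 1824 in libraries labelled C3-/- (-3.71 ± 0.40, adjusted p = 2.8e-05; -2.84 in list 1), and it was lower after PBS too (434 to 553 against 1662 to 1925 in WT).

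Hmox1, the heme oxygenase gene (chr8:75093621-75100589), had 7160.4, 12322, 5780.2 and 9752 in WT glycerol libraries and 7554, 3366, 1622 and 6418 in those labelled C3-/-, with 651 to 869 and 264 to 688 after PBS. The groups overlapped, and the difference of -1.06 ± 0.43 did not pass (adjusted p = 0.13), which does not show that they were alike. Of 16 heme and iron genes 1 was lower over 8 libraries (6.25%, against 4.85% of all tested genes). That count was 0 without WT or C3-/- glycerol replicate 2 and 3 without WT glycerol replicate 4. In list 1, 2 were lower (12.5%, against 14.6%). Of 17 Nrf2 targets 3 were higher (17.6%, against 6.38% of all tested genes; 6 without WT glycerol replicate 4) and none lower. In list 1, 7 were higher (41.2%, against 15.5%), and 4 without C3-/- glycerol replicate 2 or C3-/- glycerol replicate 4. Gstm3 passed the filter only through the C3-/- glycerol libraries. Gstm3, a glutathione transferase gene with near-identical relatives, had 9.43, 2.74, 7.75 and 8.38 against 31.6, 37.5, 37.2 and 35.9 (2.28 ± 0.51, adjusted p = 0.0094), and the epoxide hydrolase gene Ephx1 differed by 1.05 ± 0.24. Of 20 genes of amino acid and unfolded protein stress 1 was higher and 1 lower (5.0% each, near the 6.38% and 4.85% of all tested genes). In list 1, 5 were higher (25.0%, against 15.5%), and 2 without C3-/- glycerol replicate 2, while 1 was lower (5.0%, against 14.6%). Trib3, a pseudokinase gene downstream of ATF4, was the higher one over 8 libraries (372, 688, 448 and 451 against 1550.4, 1313, 1187 and 1460.4, 1.52 ± 0.23, adjusted p = 0.00068). Xbp1, of the unfolded protein response, was lower (-1.47 ± 0.36, adjusted p = 0.016). Over 8 libraries the higher count of that list was 3 without C3-/- glycerol replicate 3 or WT glycerol replicate 4. It was 2 without C3-/- glycerol replicate 4, which also gave 2 lower. No mitochondrially encoded transcript of 10 was called over 8 libraries.

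**Figure D4:**
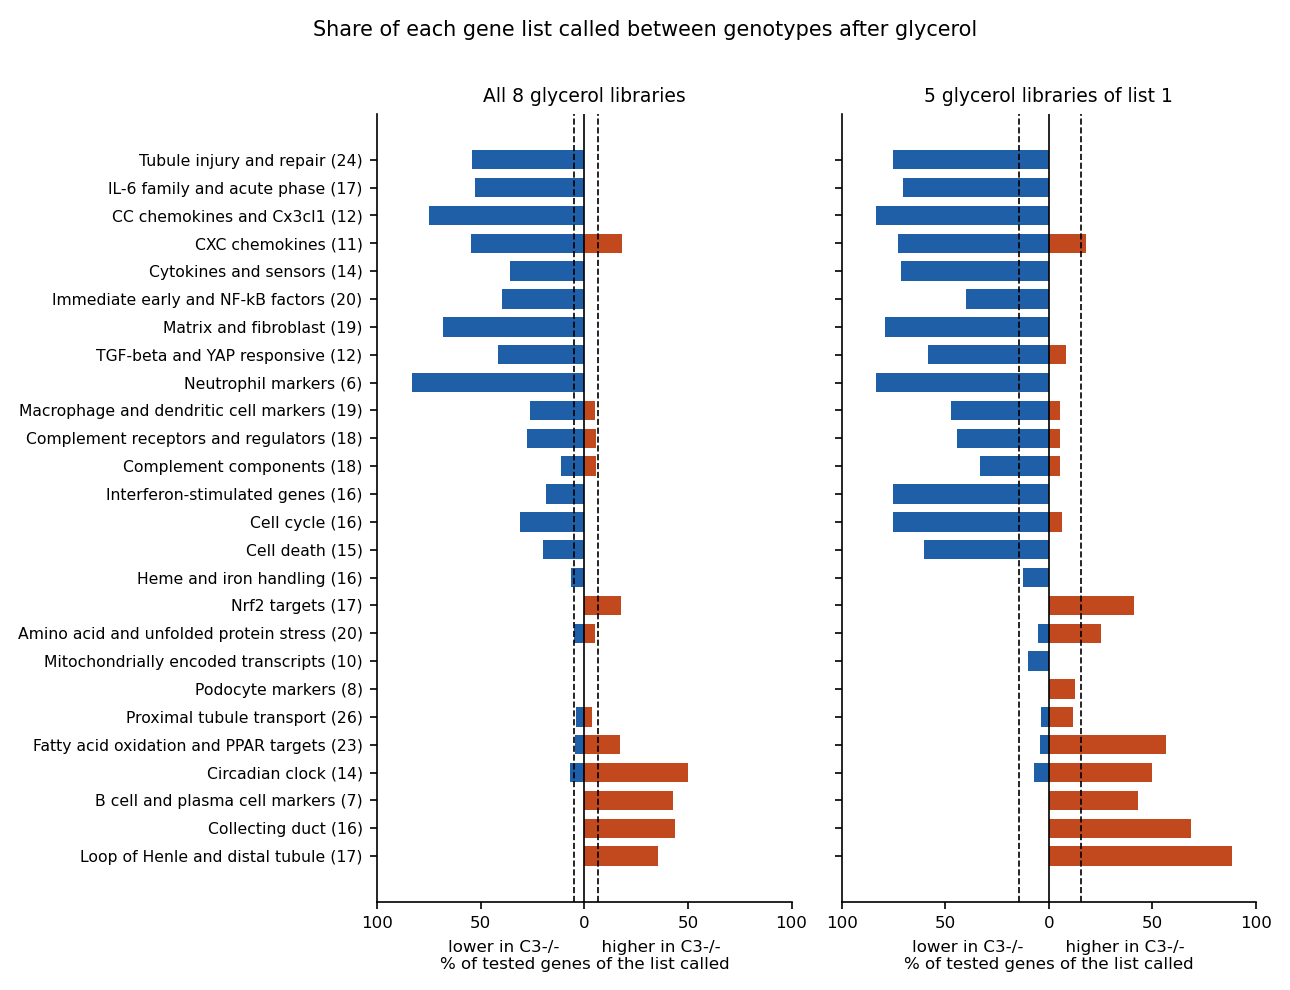
Bars give the percentage of the tested genes of each list (number in parentheses) called lower (blue, to the left) or higher (red, to the right) in libraries labelled C3-/- after glycerol, over all 8 libraries (left panel) and in the 5 of list 1 (right panel). Dashed lines mark the percentage of all 18035 tested genes called in that direction (4.85% and 6.38% on the left, 14.6% and 15.5% on the right); injury, chemokine and matrix lists extend far past the left line and the loop and collecting duct lists past the right line.

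Of 14 circadian clock genes 7 were higher (50.0%, against 6.38% of all tested genes) and 1 was lower (7.14%, against 4.85%). Over 8 libraries 4 were higher without WT glycerol replicate 1 and 2 lower without WT glycerol replicate 4. The counts were the same in list 1, against 15.5% and 14.6% of all tested genes, and there 0 were lower without C3-/- glycerol replicate 2. Per3, a repressor of the clock, had 525, 277, 510.3 and 230.2 against 598, 1376, 2033 and 1227 (1.72 ± 0.33, adjusted p = 0.0031), and Tef, a clock output factor, 2760.3, 1370.2, 3318 and 2378 against 4717, 7441, 17436 and 7957 (1.84 ± 0.33, adjusted p = 0.002). Npas2, of the activating arm, had 216, 146, 209 and 169.8 against 51.7, 64.6, 43.3 and 90.3 (-1.59 ± 0.29, adjusted p = 0.0024). The repressor gene Cry2 was higher by 1.26 ± 0.21. The hour of sampling is not given, and its part in these differences was not tested. Of 9 male-biased kidney genes none was called after glycerol over 8 libraries (median -1.60), and 2 were lower without C3-/- glycerol replicate 3. After PBS all 9 were lower in the list 1 fit and 2 in the fit of 16 libraries, where 10% and 1.19% of all tested genes were. Kap, the androgen-regulated protein gene, had 300566, 180660.0, 325903 and 355026 against 42631, 33978, 478915 and 107338, with high values in the C3-/- replicate 3 and low ones in replicates 1 and 2, which lack Ddx3y. Of 6 female-biased genes 3 were higher over 8 libraries (50.0%, against 6.38% of all tested genes). The transporter gene Slc22a29 had 16.9, 4.27, 28.3 and 24.5 against 659, 395, 223 and 55.5 (3.88 ± 0.71, adjusted p = 0.0025), again highest in C3-/- replicates 1 and 2. With the Y-linked level as a covariate, 107 of the 110 called genes named here kept their call and direction, and 1656 of all genes were called. The named genes were chosen from the same comparison, so the number kept is no independent support. No WT library lacked Ddx3y, so the covariate rests mainly on the C3-/- libraries.

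The authors' deposited table of the same comparison, made with DESeq2, lists 3439 genes at an adjusted p under 0.05, of which 1956 are higher in C3-/-. Of the 2016 limma calls with an adjusted p in the authors' deposited table, 2003 were called there in the same direction.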

How the data were processed

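Mouse kidney RNA was sequenced, with 4 libraries in each of 4 groups. The authors deposited normalized read counts (a scaled signal per gene, from DESeq2) and, for each gene, the Wald score, log2 fold change with standard error, and raw and adjusted p-value of their own test. STAR 2.7.1, R 3.6.1, DESeq2 and GRCm38 are named per the submitters' processing notes, and Ensembl release 96 in the name of the deposited matrix. A name for the counting program was not given in the sources used here. The read depth is unknown: whole multiples of a library's lowest value (tolerance 0.01) made up only 1.78 to 2.11% of its values, so whole reads were not recovered. No column of values was left without a sample, and 37 genes shared all their values with another gene.

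The values were tested as log2(value + 1) with limma 3.58.1 in R 4.3.3, with 1 coefficient per group over 16 libraries, or over the 13 of list 1, and Benjamini-Hochberg adjustment over 18035 genes. Fold changes are on that scale, which understates changes of low genes. Each gene had a single estimate of spread shared by all groups, so the p-values assume that glycerol and PBS libraries vary alike. The fit was tested on simulated data with the same spread per gene in all 16 libraries. Those data do not test unequal spread between groups. The gene lists and the genes named were chosen with earlier results of these data known. Named genes were C3, a set of injury, complement and segment genes, 12 called genes at each end of the range of differences (mean of at least 50, groups that do not overlap), up to 4 members of each list by p, and the 6 largest interactions in each direction, from which the text takes a part. Genes outside this rule are marked as named after their values were seen. The values of 2 genes that the rule names are not reported here. Positions are from GENCODE M21, found for 20515 of the 20525 genes, and promoter sequences from RefSeq. Alternatives were another pseudocount, filter and scaling, the replicate number as a block, list or Y-linked level as covariates, array weights, the glycerol libraries alone, and each glycerol library left out.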

Additional observations from a re-analysis of the deposited data

Results flagged for a closer look

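In groups of 4 libraries, a library whose gap to its neighbour exceeded Dixon's 95% critical share of the group's range was singled out. Chance does this in about 1 in 20 groups, and 27 such cases came from 242 groups of named genes. In C3-/- glycerol replicate 1, normalized counts far from those of its group were measured for C3ar1 (181), Igkc (7542), Mrc1 (165), Myd88 (1072), Timp1 (549.6), Tnc (565) and Trim12a (2.78). In C3-/- glycerol replicate 3, normalized counts far from those of its group were measured for Anxa2 (1367), Ccr2 (76.6), Kap (478915), Mzb1 (86.5) and Slc34a1 (158390.0). In WT glycerol replicate 1, normalized counts far from those of its group were measured for Col4a1 (13986). In WT glycerol replicate 2, normalized counts far from those of its group were measured for C7 (140.0), Krt20 (8226), Mmp9 (77.8) and S100a9 (447). In WT glycerol replicate 4, normalized counts far from those of its group were measured for Acaa2 (1654), Bcl2l1 (7463), Chd9 (355471), Cxcl11 (25.0), Icam1 (3257), Igsf23 (15.7), Trim12a (1916), Umod (19329), Vcam1 (302) and Xist (66.6). WT glycerol replicate 4 also had 3374 genes listed at 0. The sum of normalized counts stood apart in its group in WT PBS replicate 4 (32.43 M), C3-/- PBS replicate 4 (34.01 M) and WT glycerol replicate 4 (38.39 M). The part of these libraries in the results was not tested beyond leaving each glycerol library out.

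For 18 named genes the genotype difference after glycerol differed from that after PBS by limma's interaction test over 16 libraries. The interaction, on the log2 scale, was negative for Anxa2 (-2.21), Ccl12 (-3.07), Ccl20 (-4.64), Chil3 (-3.93), Cxcl3 (-3.75), Cxcl5 (-4.89), Fgg (-4.53), Fut2 (-5.06), Il1f6 (-4.56), Lif (-3.62), Osmr (-1.88) and Sox9 (-4.86). It was positive for Kcnt1 (4.99), Lypd2 (4.20), Nccrp1 (5.91), Ppp1r1b (3.54), Slc12a1 (2.55) and Wfdc15b (2.91). The adjusted p-values ran from 0.00098 to 0.045. Of these Ccl12, Ccl20, Chil3, Cxcl3, Cxcl5, Fut2 and Il1f6 passed the filter on low values only through the WT glycerol libraries, so their tests are a description. The call ended when single glycerol libraries were left out for Anxa2, Ccl12, Ccl20, Chil3, Cxcl3, Fgg and Osmr. For Anxa2 this was WT glycerol replicate 1 (0.057), and for Cxcl3 C3-/- glycerol replicate 4 (0.052), WT glycerol replicate 1 (0.079) or WT glycerol replicate 2 (0.073), adjusted p in parentheses.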

How the results depend on the processing

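The limma calls after glycerol numbered 2025 over 8 libraries and 1262 with a mean of at least 100, which tests fewer genes. They numbered 5720 with the list as a covariate, 6016 with list and Y-linked level, 6439 with array weights and 297 with the 8 glycerol libraries fitted alone, and 1385 to 4396 when single libraries were left out. Within list 1 they ranged from 2566 to 5765 around 5432. After PBS there were 402 calls, 150 with the Y-linked level and 3481 in the fit of list 1. The interaction called 79 genes, 141 with a pseudocount of 8, 48 with a mean of at least 100, 1324 with the list as a covariate, and 47 to 225 without single libraries. Within list 1 it called 1858, and 739 to 2629 without single libraries. The replicate block gave 1638 calls after glycerol, 41 for the interaction and 1220 for the interaction in list 1. Same-numbered glycerol libraries deviated from their group means with correlations of -0.676, 0.385, -0.366 and -0.692 for replicates 1 to 4. Replicates 1, 3 and 4 set a list 1 library against one of list 2. Every such pair across the lists was negative, whatever its numbers (-0.692 to -0.194). The correlations therefore cannot tell whether same-numbered libraries were paired. Of the 110 called genes named, 53 kept the call with the glycerol libraries alone, 107 with the replicate block, 107 with the Y-linked level, and all 110 with the list as a covariate. Signs turned for genes that did not pass: C3, 0.07 over 8 libraries, was at -0.32 with the list, -0.53 with list and Y-linked level, -0.21 with the Y-linked level, -1.10 with array weights and -0.37 to 0.44 without single libraries. Cfb was at 0.30 with the Y-linked level and -0.65 to 0.37 without single libraries, C3ar1 at -0.97 to 0.07 and Umod at -0.15 to 0.84. The cause of these changes was not tested. Depth is unknown, so no limit from counting can be given.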
